A study of Homo sapiens with 9 samples.

Results

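The polypyrimidine tract-binding (PTB) protein family and its cofactors were followed through PTBP1 knockdown in U251 cells, an established human glioblastoma line. The set consisted of 6 genes, taken by symbol from the 22295 entries of the expression table. They were PTBP1, the target of the short hairpin RNA (shRNA), its paralogs PTBP2 and PTBP3, and the cofactors RAVER1, RAVER2 and MATR3. Each symbol matched 1 entry, and all 6 passed the filter of a mean of at least 0.1 FPKM over the 9 libraries. FPKM counts fragments per length of transcript relative to the library's size, so levels of different genes are compared per length.

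The 9 RNA-seq libraries came from 3 groups of 3. U251 cells of the group sh-Luci-3d carried a control lentivirus with an shRNA against luciferase and were collected 3 days post infection (dpi). The groups sh-Ptbp1-3d and sh-Ptbp1-7d carried the shRNA lentivirus against PTBP1 and were collected at 3 and 7 dpi. All groups were cells of the same line, infected in culture, with total RNA extracted in TRIzol. Cells were in a neuronal induction medium with forskolin and dorsomorphin from 2 dpi, and a single shRNA out of 3 candidates against PTBP1 was used. Another shRNA and a 7 dpi sh-Luci library were not analysed here, so knockdown, time and days in the medium cannot be told apart at 7 dpi. The labels do not say whether the libraries of a group came from separate cultures, so p-values measure the spread between these libraries, which may be technical.

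PTB proteins bind pyrimidine-rich RNA and most often repress the inclusion of nearby exons. In most non-neuronal cells PTBP1 dominates, whereas neurons lose PTBP1 and gain PTBP2 (nPTB) as they differentiate, and PTBP3 (ROD1) was first studied in blood cells. PTBP1 and PTBP2 are known to act on each other through a short alternative exon: PTB proteins favour skipping of this exon, which shifts the reading frame, and the shortened mRNA is removed by nonsense-mediated decay (NMD). RAVER1 and RAVER2 are nuclear ribonucleoproteins that bind PTB and can act as its corepressors, and MATR3 (matrin 3) is a nuclear matrix RNA-binding protein that also binds PTB.

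The exon behind this cross-regulation is shown for the 3 paralogs because it has the same length of 34 bases in each and is coding in each. Sequences are from GENCODE 29 transcripts on GRCh38, written 5′ to 3′ on the gene's strand, and capitals mark bases that are identical in all 3 paralogs. The PTBP1 exon is exon 11 of 15, at chr19:807869-807902, plus strand. In PTBP2 it is exon 10 of 14, at chr1:96806419-96806452, plus strand, and in PTBP3 exon 11 of 15, at chr9:112231380-112231413, minus strand.
PTBP1: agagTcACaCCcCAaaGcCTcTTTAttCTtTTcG
PTBP2: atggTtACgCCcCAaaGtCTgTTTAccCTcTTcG
PTBP3: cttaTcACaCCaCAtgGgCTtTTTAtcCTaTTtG
The PTBP1 and PTBP2 exons shared 25 of 34 bases (73.5%), PTBP1 and PTBP3 shared 22 (64.7%), PTBP2 and PTBP3 shared 21 (61.8%), and 19 (55.9%) were the same in all 3. Pyrimidines made up 22, 22 and 23 of the 34 bases in PTBP1, PTBP2 and PTBP3. GENCODE 29 lists 2 NMD transcripts of PTBP1, PTBP1-219 and PTBP1-207, with the next 3 exons but no exon of 34 bases directly before them. This search compared exon lengths, not positions. The same search returned no such transcript of PTBP2 or PTBP3. The deposited FPKM are 1 value per gene, so inclusion of the exon was not measured. No stretch of 31 bases was shared between transcripts of any pair of PTBP1, PTBP2 and PTBP3, or of RAVER1 and RAVER2. PTBP1 shared 109 of its 7287 stretches (1.5%) with its processed pseudogene PTBP1P, which has 0 entries in the table.

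The FPKM summed to between 367412 and 404922 per library. The sequencing depth is unknown, so no counting error can be given. Of the astroglial and glioma markers, VIM stood at 4088 to 4488 FPKM in the 3 dpi libraries and at 1094 to 1249 FPKM at 7 dpi, while GFAP was at most 1.15 FPKM. SOX2 ranged from 94.6 to 149.1 FPKM. Summed FPKM of the 8 astroglial and glioma markers was 4459 to 4586 in sh-Luci-3d, 4583 to 4879 in sh-Ptbp1-3d and 1387 to 1510 in sh-Ptbp1-7d, mostly VIM. From 3 to 7 dpi, VIM and CD44 of this list were lower and S100B (log2 fold change 2.08, limma adjusted p = 0.00202) higher past an FDR of 0.01, and the other 5 did not pass. For the 8 neuronal markers it was 265.2 to 316.3, 335.4 to 357.2 and 158.6 to 166.2, mostly TUBB3, and none of the 8 was at 0 in all libraries. In the same step TUBB3 was lower and MAP2 higher (0.94, limma adjusted p = 0.00058), while SNAP25 did not pass (0.72, limma adjusted p = 0.0177). Against the controls, both SNAP25 (1.69, limma adjusted p = 9.16e-05) and SOX2 (0.46, limma adjusted p = 0.00184) were higher at 7 dpi. In that comparison S100B and MAP2 were also higher past an FDR of 0.01, and VIM, CD44 and TUBB3 were lower. The 3 blood and immune markers summed to at most 0.0903 FPKM, with CD3E at 0 in all 9 libraries. A pair of libraries stood apart. In replicate 3 of sh-Ptbp1-3d, STMN2 was at 11.5 and DCX at 2.15 FPKM, against 0 and at most 0.0346 FPKM in the other 8 libraries. Leaving out replicate 3 of sh-Luci-3d raised the number of entries that differed at 3 dpi from 5 to 986.

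The targeted gene was examined first, as a check of the labels. Differences were tested with limma on log2(FPKM + 0.1) in a fit of all 9 libraries, and p-values were adjusted over 15551 entries. A gene passed at a false discovery rate (FDR) below 0.05 between sh-Luci-3d and the 3 dpi knockdown, and below 0.01 in the comparisons with sh-Ptbp1-7d. The fold changes of the 6 genes and the numbers of entries called were also computed under 23 alternative settings. PTBP1 was at 110.7, 111.9 and 124.4 FPKM in the sh-Luci-3d libraries, at 66.2, 64.4 and 61.0 FPKM in sh-Ptbp1-3d, and at 49.8, 50.7 and 51.0 FPKM in sh-Ptbp1-7d. All 3 groups were separate, with sh-Luci-3d highest and sh-Ptbp1-7d lowest. As a group mean, PTBP1 kept 55.2% of the sh-Luci-3d level at 3 dpi and 43.6% at 7 dpi. It fell at 3 dpi (log2 fold change -0.85, standard error 0.073, limma adjusted p = 0.00314) and held the smallest p-value of the 15551 entries tested. A further fall followed from 3 to 7 dpi (log2 fold change -0.34, 95% interval -0.50 to -0.18, limma adjusted p = 0.00283), where it ranked 4194. From sh-Luci-3d to sh-Ptbp1-7d the log2 fold change was -1.19 (standard error 0.073, limma adjusted p = 3.77e-07). In bulk RNA, fewer cells of a kind and less RNA per cell cannot be told apart. The 3 dpi call was lost without replicate 3 of sh-Ptbp1-3d (log2 fold change -0.82, adjusted p = 0.0579) and held without both libraries that stood apart (-0.77, adjusted p = 0.0149), while the step from 3 to 7 dpi lost its call at 0.01 in 4 of 23 alternatives. PTBP1 lies on chromosome 19, 797075 to 812327, plus strand.

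**Figure D1:**
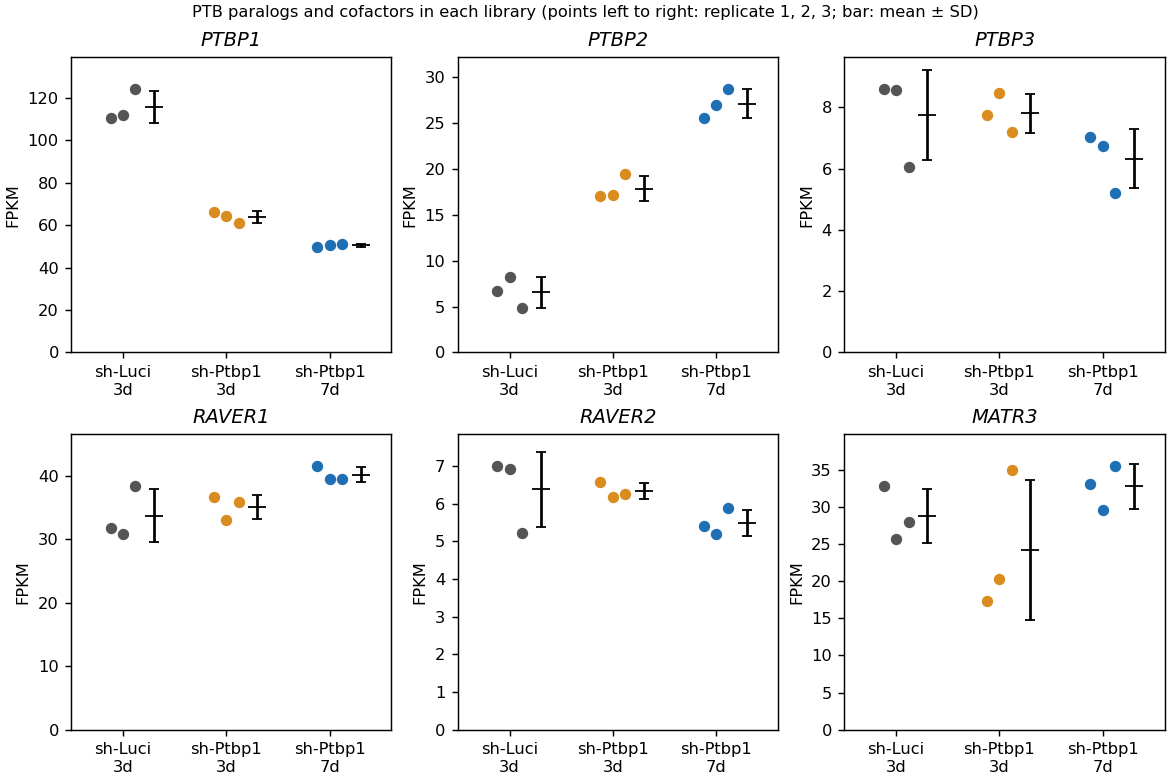
FPKM (vertical axes, each from 0) of PTBP1, PTBP2, PTBP3, RAVER1, RAVER2 and MATR3 in the 9 libraries, by group (horizontal axes); points are libraries in the order of replicates 1, 2 and 3, and bars give the mean and SD. PTBP1 and PTBP2 separate all 3 groups in opposite directions, while 1 sh-Ptbp1-3d library sets MATR3 (35.1 FPKM) far above the other 2 (17.4 and 20.4 FPKM).

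PTBP2, the neuronal paralog on chromosome 1 (96721665 to 96823738, plus strand), moved the opposite way. It was at 6.65, 8.17 and 4.80 FPKM in the sh-Luci-3d libraries, at 17.0, 17.1 and 19.4 FPKM in sh-Ptbp1-3d, and at 25.6, 27.0 and 28.7 FPKM in sh-Ptbp1-7d. Again no library of a group overlapped another group, and replicate 3 was the lowest in sh-Luci-3d and the highest in both sh-Ptbp1 groups. The group means were 273% of sh-Luci-3d at 3 dpi and 414% at 7 dpi. PTBP2 rose at 3 dpi (log2 fold change 1.46, 95% interval 1.11 to 1.82, limma adjusted p = 0.00857) and ranked 4 by p-value. It rose again from 3 to 7 dpi (0.60, 95% interval 0.25 to 0.95, limma adjusted p = 0.00931), where its rank was 5491. Over both steps together the log2 fold change was 2.06 (standard error 0.159, limma adjusted p = 2.16e-06). The call at 3 dpi was lost in 8 of 23 alternatives, among them the fit without replicate 3 of sh-Ptbp1-3d (1.40, adjusted p = 0.151), and it held without both libraries that stood apart (1.20, adjusted p = 0.0164). The step from 3 to 7 dpi passed 0.01 narrowly and missed it in 13 of 23 alternatives, with adjusted p between 0.000252 and 0.0441 and log2 fold changes between 0.51 and 0.70.

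The balance between the paralogs shifted in every library. PTBP2 made up 5.28%, 6.35% and 3.55% of the summed FPKM of PTBP1, PTBP2 and PTBP3 in sh-Luci-3d. Its share was 18.7%, 19.0% and 22.1% in sh-Ptbp1-3d and 31.04%, 31.9% and 33.8% in sh-Ptbp1-7d. The groups did not overlap, and the means of 5.06% ± 1.41, 20.0% ± 1.90 and 32.3% ± 1.42 (SD, n = 3) differed by 14.9 percentage points at 3 dpi and by a further 12.3 between 3 and 7 dpi (exact permutation p = 0.1 for each, two-sided, the smallest that 3 against 3 allows). By FPKM, PTBP1 nevertheless remained the highest paralog in all 9 libraries, at 89.0% ± 2.65, 71.3% ± 1.59 and 60.2% ± 0.220 of the sum. The ratio of PTBP1 to PTBP2 was 18.8 ± 6.36 in sh-Luci-3d, 3.60 ± 0.399 in sh-Ptbp1-3d and 1.87 ± 0.0867 in sh-Ptbp1-7d. PTBP1 is the shRNA target and most of the sum, so its fall alone raises the PTBP2 share and lowers this ratio. The share of PTBP3 also rose at 3 dpi, from 5.99% to 8.72% without overlap, while its mean FPKM was 100.8% of sh-Luci-3d. The permutation test of the share therefore gives no result about PTBP2 itself, whose FPKM was tested above. These shares and ratios depend on the transcript lengths used for FPKM, which are not given in the sources used here. The longest annotated transcript has 4661 bases and 61.7% GC in PTBP1, and 12014 bases and 34.7% GC in PTBP2. The shares were not corrected for GC.

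In absolute FPKM the rise of PTBP2 was smaller than the fall of PTBP1. At 3 dpi the mean of PTBP1 dropped by 51.8 FPKM and that of PTBP2 increased by 11.3 FPKM, or 21.8% of the PTBP1 difference. From 3 to 7 dpi the differences were closer, as the mean of PTBP1 dropped by 13.4 FPKM and that of PTBP2 increased by 9.23 FPKM, or 68.9%. The paralogs summed to 126, 128.6 and 135.3 FPKM in sh-Luci-3d, to 91.0, 90.0 and 87.6 FPKM in sh-Ptbp1-3d, and to 82.3, 84.5 and 84.9 FPKM in sh-Ptbp1-7d. The summed level thus stood at 68.9% of sh-Luci-3d at 3 dpi and 64.6% at 7 dpi, and the 3 groups did not overlap. These are mRNA levels, and protein was not measured in these libraries.

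**Figure D2:**
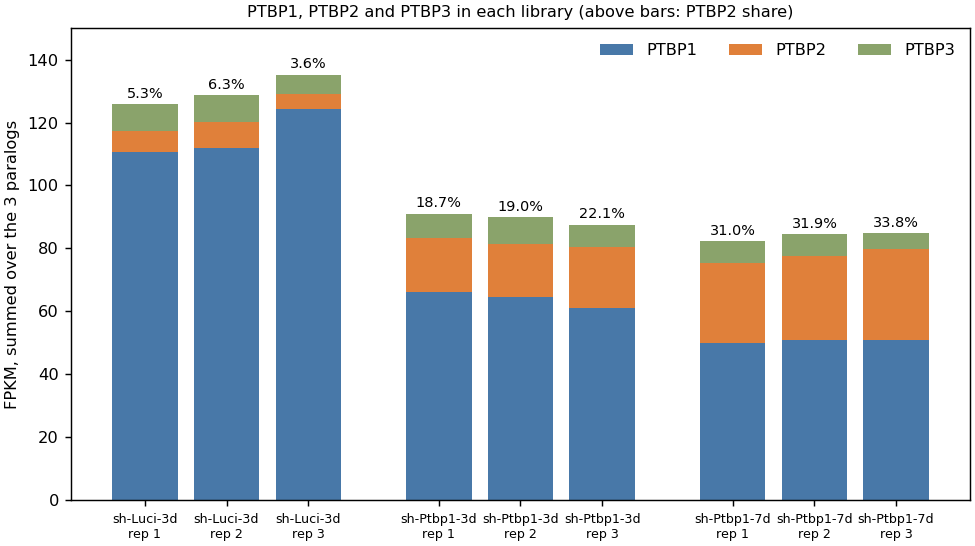
Stacked FPKM (vertical axis, from 0) of PTBP1, PTBP2 and PTBP3 in each of the 9 libraries (horizontal axis, by group and replicate), with the PTBP2 share of the sum printed above each bar. The bars are tallest in sh-Luci-3d and the PTBP2 segment widens from at most 6.35% there to at least 31.04% in sh-Ptbp1-7d.

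PTBP3, on chromosome 9 (112217716 to 112333667, minus strand), passed the test in none of the comparisons. It was at 8.61, 8.57 and 6.07 FPKM in the sh-Luci-3d libraries, at 7.76, 8.47 and 7.21 FPKM in sh-Ptbp1-3d, and at 7.02, 6.75 and 5.22 FPKM in sh-Ptbp1-7d. The 3 dpi groups overlapped, and every sh-Ptbp1-7d library was below every sh-Ptbp1-3d library. The log2 fold change was 0.03 at 3 dpi (95% interval -0.32 to 0.38, limma adjusted p = 0.982) and turned to -0.14 without replicate 3 of sh-Luci-3d, its lowest library there. From 3 to 7 dpi it was -0.31 (95% interval -0.66 to 0.04, limma adjusted p = 0.13). The longest PTBP3 transcript had 36.6% GC. After each library was corrected for its dependence on GC and transcript length, the difference from 3 to 7 dpi was -0.40 (limma adjusted p = 0.00111).

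RAVER1, the PTB corepressor on chromosome 19 (10316212 to 10333640, minus strand), was at 31.8, 30.9 and 38.5 FPKM in the sh-Luci-3d libraries, at 36.7, 33.1 and 35.9 FPKM in sh-Ptbp1-3d, and at 41.6, 39.6 and 39.5 FPKM in sh-Ptbp1-7d. The 7 dpi libraries were above all others, and the 3 dpi groups overlapped. Its log2 fold changes were 0.07 at 3 dpi (95% interval -0.14 to 0.27, limma adjusted p = 0.903), 0.19 from 3 to 7 dpi (-0.01 to 0.40, limma adjusted p = 0.106) and 0.26 between sh-Luci-3d and sh-Ptbp1-7d (0.055 to 0.465, limma adjusted p = 0.0379), none past its threshold. Without replicate 3 of sh-Luci-3d the last of these was 0.36 with an adjusted p of 0.00117. The longest RAVER1 transcript had 62.5% GC. With the same correction for GC and length, the difference between sh-Luci-3d and sh-Ptbp1-7d was -0.02 (limma adjusted p = 0.748). The one at 3 dpi was -0.09 (limma adjusted p = 0.544). The ratio of RAVER1 to PTBP1 in FPKM was 0.291 ± 0.0170 in sh-Luci-3d, 0.552 ± 0.0375 in sh-Ptbp1-3d and 0.798 ± 0.0342 in sh-Ptbp1-7d (exact permutation p = 0.1 for each step, n = 3, the smallest possible). The 3 groups did not overlap in this ratio, but PTBP1 is the shRNA target, so its fall alone raises the ratio. At 3 dpi the mean of RAVER1 was 104.3% of sh-Luci-3d and that of PTBP1 55.2%, and at 7 dpi they were 119.3% and 43.6%. The permutation test of the ratio therefore gives no result about RAVER1 itself. By whole gene span, introns included, RAVER1 overlaps AC011511.4 on the same strand by 4467 bases. AC011511.4 was at 9.37 FPKM in replicate 2 of sh-Ptbp1-3d, where RAVER1 was lowest for its group. In the other libraries AC011511.4 was at most 0.111 FPKM.

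RAVER2, the related cofactor on chromosome 1 (64745095 to 64833232, plus strand), was the lowest of the 6 genes by group mean in all 3 groups. Its values were 7.01, 6.92 and 5.23 FPKM in the control libraries, 6.57, 6.18 and 6.27 FPKM in sh-Ptbp1-3d, and 5.42, 5.20 and 5.88 FPKM in sh-Ptbp1-7d. The sh-Ptbp1-7d libraries lay below those of sh-Ptbp1-3d and overlapped sh-Luci-3d through its replicate 3. The log2 fold changes were 0.001 at 3 dpi (95% interval -0.27 to 0.27, limma adjusted p = 0.999), -0.20 from 3 to 7 dpi (-0.48 to 0.07, limma adjusted p = 0.198) and -0.20 between sh-Luci-3d and sh-Ptbp1-7d (limma adjusted p = 0.2). With the GC and length correction the last 2 were -0.36 (adjusted p = 0.00493) and -0.33 (adjusted p = 0.00778), and the sign at 3 dpi, next to 0, turned in 7 of 23 alternatives. The gene overlaps JAK1, on the opposite strand, by 4 bases, and JAK1 was at 27.95 to 35.2 FPKM in the 3 dpi libraries and at 18.5 to 20.7 FPKM at 7 dpi.

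MATR3 varied more within sh-Ptbp1-3d than between groups. It was at 32.9, 25.7 and 28.1 FPKM in the sh-Luci-3d libraries, at 17.4, 20.4 and 35.1 FPKM in sh-Ptbp1-3d, and at 33.2, 29.7 and 35.6 FPKM in sh-Ptbp1-7d. The high sh-Ptbp1-3d library is replicate 3, the one with STMN2 and DCX, and their part in the MATR3 value was not tested. All groups overlapped. The coefficient of variation (SD over mean) within sh-Ptbp1-3d was 39.0%, above that of 98.4% of the 11990 entries with a mean of at least 1 FPKM compared, whose median was 6.71%. The log2 fold changes were -0.31 at 3 dpi (95% interval -0.78 to 0.16, limma adjusted p = 0.791) and 0.50 from 3 to 7 dpi (0.03 to 0.97, limma adjusted p = 0.0749). Without replicate 3 of sh-Ptbp1-3d they were -0.61 (adjusted p = 0.599) and 0.795 (adjusted p = 0.00155), and without both libraries that stood apart the value at 3 dpi was -0.62 (adjusted p = 0.0609). GENCODE 29 holds 2 overlapping gene models named MATR3 on chromosome 5, from 139273752 to 139331671 and from 139293648 to 139331677, both on the plus strand. The table has a single MATR3 entry, and which model it stands for is not given in the sources used here. By whole gene span, introns included, the longer model overlaps SIL1 on the opposite strand by 19806 bases. SIL1 was at 18.8 to 27.5 FPKM at 3 dpi and at 56.7 to 60.7 FPKM at 7 dpi. Whether the counting used strand is not given in the sources used here.

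**Figure D3:**
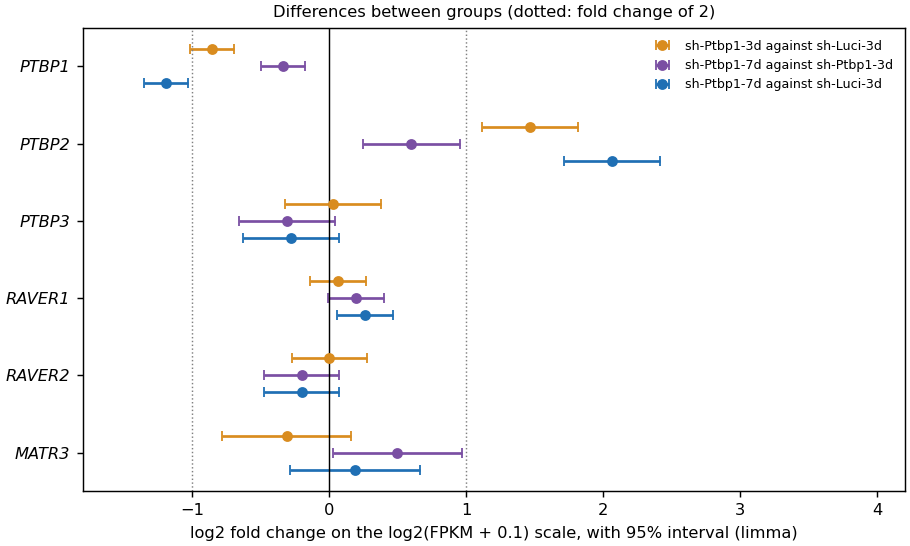
Log2 fold change on the log2(FPKM + 0.1) scale (horizontal axis) with its 95% limma interval for the 6 genes (vertical axis) in the 3 comparisons; dotted lines mark a fold change of 2. Only the intervals of PTBP1 and PTBP2 lie away from 0 in all 3 comparisons, and PTBP2 passes a fold change of 2 at 3 dpi (log2 fold change 1.46).

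Across the set, 2 of 6 genes passed the test in each comparison, PTBP1 as lower and PTBP2 as higher each time. At 3 dpi, with an FDR below 0.05, 5 of 15551 entries (0.0322%) passed, 3 higher (0.0193%) and 2 lower (0.0129%), so PTBP1 and PTBP2 made up 2 of the 5. The number of entries passing there depended on the setting, from 0 in the 2 groups alone to 986 without replicate 3 of sh-Luci-3d. From sh-Ptbp1-3d to sh-Ptbp1-7d, with an FDR below 0.01, 35.8% of entries passed, 20.3% higher and 15.5% lower. Between sh-Luci-3d and sh-Ptbp1-7d 35.6% did, 20.6% higher and 15% lower, close to the 2 of 6 (33.3%) of this set. With a fold change above 2 also asked for, PTBP2 alone remained at 3 dpi (0.0129% of entries), none of the 6 from 3 to 7 dpi (14.2%), and PTBP1 and PTBP2 between sh-Luci-3d and sh-Ptbp1-7d (14.6%). Groups did not overlap for 2 of 6 genes at 3 dpi, where 10.8% of entries behaved so. The corresponding counts were 5 of 6 from 3 to 7 dpi, against 62.3% of entries, and 3 of 6 between sh-Luci-3d and sh-Ptbp1-7d, against 55.9%. The median log2 fold change of the 6 genes was 0.01, -0.004 and -0.007 in the 3 comparisons, beside 0.01, 0.09 and 0.10 over all entries. The comparisons share libraries: both later ones use sh-Ptbp1-7d, and sh-Ptbp1-3d and sh-Luci-3d also enter 2 comparisons each.

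**Figure D4:**
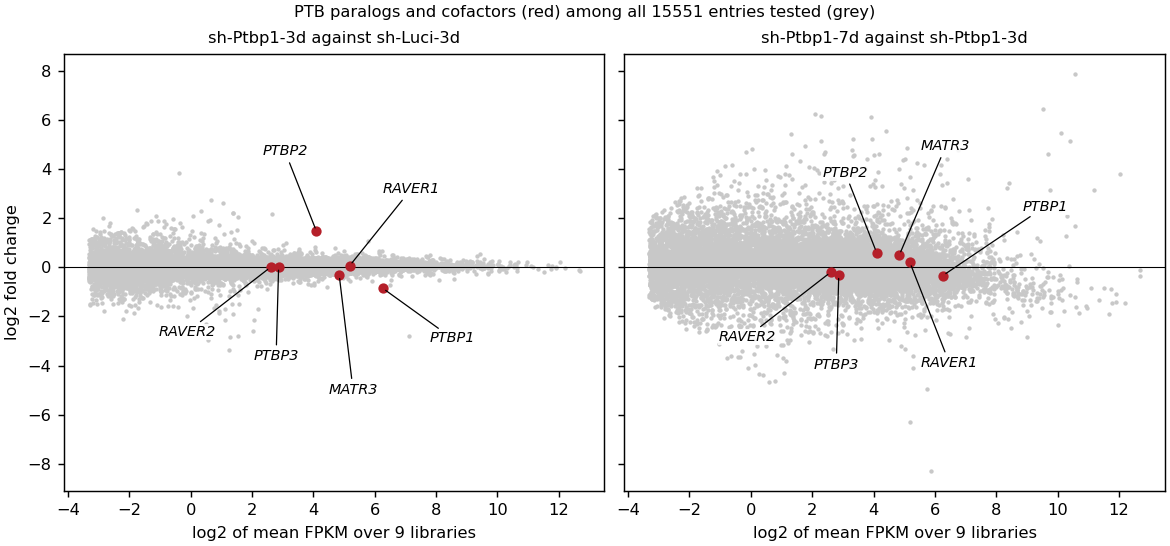
Log2 fold change (vertical axis) against the log2 of mean FPKM over 9 libraries (horizontal axis) for all 15551 entries tested (grey) and the 6 genes (red, named), at 3 dpi on the left and from 3 to 7 dpi on the right. PTBP1 and PTBP2 lie outside the grey band for their level on the left, while all 6 genes lie inside a much wider band on the right.

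The order of the 6 genes by level, in FPKM, also changed. In sh-Luci-3d PTBP1 was first, above 97.2% of the entries tested, and RAVER1 and MATR3 followed at 87.5% and 85.3%, with overlapping libraries. PTBP3, PTBP2 and RAVER2 came last at 57.4%, 53.4% and 52.8%, and each of these overlapped the next. In sh-Ptbp1-3d PTBP2 had moved to the fourth place, at 76.3% of entries and above PTBP3 in every library, while RAVER1, MATR3 and PTBP2 overlapped their neighbours in that order. By sh-Ptbp1-7d the order was PTBP1 (92.1%), RAVER1 (89.6%), MATR3 (86.9%), PTBP2 (83.8%), PTBP3 (50.8%) and RAVER2 (47.6%), and only PTBP3 and RAVER2 overlapped. The ratio of PTBP2 to PTBP3 went from 0.839 ± 0.0988 in sh-Luci-3d to 2.30 ± 0.346 in sh-Ptbp1-3d and 4.38 ± 0.988 in sh-Ptbp1-7d (SD, n = 3).

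The spread between replicates differed among the genes. PTBP1 was among the most even entries in sh-Ptbp1-7d, with a coefficient of variation of 1.28% against a median of 8.20% over 11987 entries, and 2.3% of entries were lower. PTBP2 was uneven in sh-Luci-3d at 25.7%, above 90.0% of entries, where its level was also lowest. In that group the median over all entries was 12.5%, against 6.71% in sh-Ptbp1-3d.

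As a pathway readout, 18 genes known to carry a PTB-regulated exon were examined at the gene level, which cannot show exon use. Of these, 17 were tested, and GRIN1 lay below the filter. At 3 dpi 0 of 17 passed the test by limma, beside 0.0322% of all entries, and the median log2 fold change was 0.10 against 0.01 over all entries. The smallest p-values at 3 dpi belonged to the tropomyosin gene TPM2 (log2 fold change 0.59, limma adjusted p = 0.524), the death receptor gene FAS (-0.26, adjusted p = 0.746), the kinase gene SRC (0.19, adjusted p = 0.778) and the deubiquitinase gene USP5 (0.18, adjusted p = 0.778). TPM2 was at 7.00, 7.54 and 11.9 FPKM in the control libraries, against 14.0, 13.4 and 11.5 FPKM in sh-Ptbp1-3d, so that the groups overlapped through replicate 3 of each. FAS, SRC and USP5 overlapped as well.

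From 3 to 7 dpi, 12 of the 17 passed, 4 higher and 8 lower (70.6%, beside 35.8% of all entries), and the median was -0.47 against 0.09. FLNA, which encodes the actin cross-linker filamin A, had 481.3, 457.3 and 438.3 FPKM at 3 dpi of knockdown and 115.9, 108.5 and 93.04 FPKM at 7 dpi (log2 fold change -2.12, limma adjusted p = 6.23e-08). TPM1, a tropomyosin gene, fell from between 37.9 and 39.2 FPKM to between 11.3 and 13.6 FPKM (log2 fold change -1.60, limma adjusted p = 3.58e-07). PKM, which encodes pyruvate kinase in muscle and embryonic forms, went from 1353 to 1441 FPKM down to 551.3 to 574 FPKM (log2 fold change -1.31, limma adjusted p = 4.33e-07). RTN4, the gene of the neurite outgrowth inhibitor Nogo, fell as well (log2 fold change -0.78, limma adjusted p = 8.25e-06). Higher values were found for DLG4, the postsynaptic scaffold PSD-95 (1.255), FAS (1.03), the GABA receptor subunit gene GABBR1 (0.96) and the growth factor receptor gene FGFR1 (0.72). In sh-Luci-3d, FLNA stood at 417.9 to 484.5 and PKM at 1366 to 1509 FPKM, overlapping sh-Ptbp1-3d. Between sh-Luci-3d and sh-Ptbp1-7d 4 of the 17 were higher and 7 lower past the threshold, beside 20.6% and 15% of all entries. The list is small and was drawn up with earlier results of these data known, and the astroglial, glioma and neuronal markers given above, among which VIM, CD44 and TUBB3 were lower and S100B and MAP2 higher, also changed from 3 to 7 dpi. Their part in these differences was not tested.

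NMD removes the exon-skipped PTBP1 and PTBP2 transcripts, and its factors and the exon junction complex that marks its substrates were therefore examined. All 15 genes of this list were tested. At 3 dpi 0 of 15 passed by limma, beside 0.0322% of all entries, with a median log2 fold change of -0.001 against 0.01 over all entries. The smallest p-value was that of RNPS1, an accessory protein of the junction complex, at 54.8, 56.5 and 63.0 FPKM in the control libraries, against 72.2, 67.3 and 66.4 FPKM in sh-Ptbp1-3d (log2 fold change 0.24, limma adjusted p = 0.572). Its groups did not overlap, which was so for 10.8% of all entries. MAGOH (0.32, adjusted p = 0.697), SMG8 (-0.20, adjusted p = 0.717) and SMG5 (-0.11, adjusted p = 0.786) came next.

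From 3 to 7 dpi 5 of 15 were higher and 0 lower past the threshold (33.3%, beside 35.8% of all entries), with a median of 0.29 against 0.09. SMG5, an adaptor that binds phosphorylated UPF1, went from 27.2, 26.1 and 25.3 FPKM to 42.5, 40.9 and 40.8 FPKM (log2 fold change 0.66, limma adjusted p = 3.23e-05). SMG6, the endonuclease of the pathway, rose from between 8.50 and 8.76 FPKM to between 12.2 and 13.0 FPKM (log2 fold change 0.55, limma adjusted p = 0.000285). The junction complex gene MAGOHB (0.61), the helicase gene UPF1 (0.43) and its partner UPF2 (0.53) were the others. Among the 10 that did not pass, SMG1, the kinase of UPF1, had the lowest value at -0.45 (limma adjusted p = 0.0848). UPF3A (-0.37, limma adjusted p = 0.0128) and UPF3B (-0.27, limma adjusted p = 0.0159) were also lower and missed 0.01 more narrowly. Of the 15 log2 fold changes, 11 were above 0. Between sh-Luci-3d and sh-Ptbp1-7d 5 of 15 were higher and 0 lower, beside 20.6% and 15% of all entries, and 3 of these 5 (UPF1, SMG5 and SMG6) had also passed from 3 to 7 dpi. The other two were MAGOH and RNPS1.

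**Figure D5:**
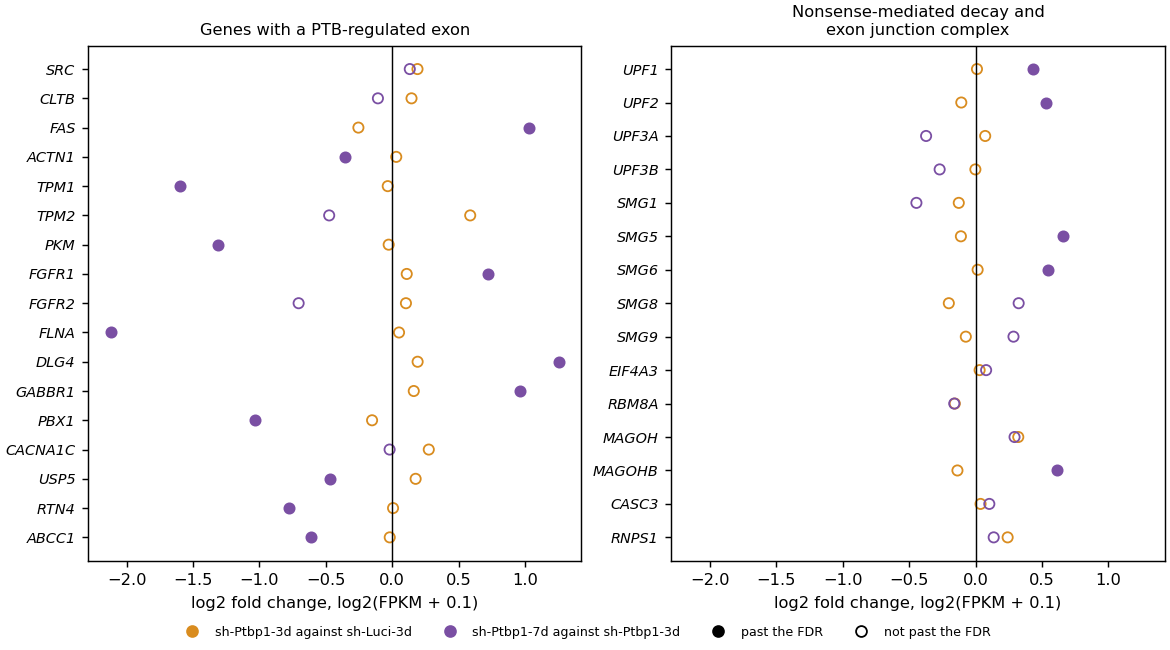
Log2 fold change on the log2(FPKM + 0.1) scale (horizontal axes) of 17 genes with a PTB-regulated exon (left) and 15 genes of NMD and the exon junction complex (right), at 3 dpi (orange) and from 3 to 7 dpi (purple); filled points passed the FDR of their comparison. No orange point is filled, while 12 purple points are filled on the left and 5 on the right.

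The expression patterns most like each of the 6 genes were taken by Pearson's r over the 9 libraries among 11340 genes with a symbol and a mean of at least 1 FPKM. These values are a description, since the 9 points share groups, depth and base composition. For PTBP1 they were REC8 (r = 0.962), PHF7 (0.955) and PTGR1 (0.952), and the level of REC8 was 3.82 to 4.37 FPKM in controls, against 1.79 to 2.35 FPKM after knockdown. PTBP2 was closest to TTC13 (0.977), TMEM60 (0.964) and TBC1D19 (0.963), and TMEM60 was, like PTBP2, among the 5 entries past the FDR at 3 dpi (9.93 to 10.9 FPKM in controls, 18.3 to 19.3 FPKM in sh-Ptbp1-3d). The closest genes to PTBP3 were TMX3 (0.982), ZYG11B (0.981) and IREB2 (0.980), with 36.2% to 39.7% GC beside the 36.6% of PTBP3. RAVER1 was most like SDF2L1 (0.988), NFKBIL1 (0.985) and NCKAP5L (0.982), with 63.9% to 65.5% GC beside its own 62.5%. ERGIC2 (0.992), SBDS (0.982) and PYROXD1 (0.964) were nearest to RAVER2. MATR3 had no match above 0.859 (FKBP7), followed by MIF (0.853), which is listed at 0 in 3 libraries, and BTD (0.852). GC, taken from each gene's longest transcript, was less alike elsewhere. The matches of PTBP1 had 42.8% to 58.1% beside its own 61.7%, and those of PTBP2 41.3% to 44.3% beside 34.7%. For RAVER2 they had 34.8% to 42.1% beside 42.3%, and for MATR3 37.2% to 66.7% beside 37.6%.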

How the data were processed

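Total RNA of 9 U251 samples, grouped by the labels, was sequenced on Illumina HiSeq. After read filtering and alignment, the authors deposited FPKM per gene, with HISAT2 and GRCh38 named in the submitters' processing notes. The counting program, annotation and strand setting are not given in the sources used here. Loci without a symbol (2363 of 22295 entries) were assembled with StringTie, and the authors also deposited their positions, a table of another kind of value used only to look for loci near the 6 genes; 0 lay within 10000 bases. Depth is unknown, so count tests were not used.

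Here log2(FPKM + 0.1) of the 15551 entries with a mean of at least 0.1 FPKM entered a limma fit (limma 3.58.1, R 4.3.3) of 3 groups over 9 libraries, with an intensity trend. This scale understates changes of low genes. Benjamini-Hochberg adjustment ran over all entries, with calls at an FDR below 0.05 at 3 dpi and below 0.01 otherwise. The FDRs at 3 dpi and from 3 to 7 dpi are those of the study's methods, which also ask for a fold change above 2. That was counted separately here, and the FDR for the 7 dpi knockdown against the controls was set here. Shares and ratios were compared with two-sided exact permutation tests (scipy 1.17.1), which cannot go below 0.1 with 3 against 3. Mean ± SD is over n = 3 libraries. Annotation and sequences were from GENCODE 29. The fit was tested on simulated data with independent noise for each entry. At an FDR below 0.05 it recovered 188 of 200 changed entries at 3 dpi and called 16 unchanged ones. The changes had log2 sizes of 1, 2 or 3, and 71 of 80 with a size of 1 were recovered. They were put only into entries with a mean log2(FPKM + 0.1) above 0, so smaller changes and lower entries were not tried. With no change put in, 0 were called. Deviations of a whole library were not simulated.

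The 6 genes, the lists and the rule for names were chosen with earlier results of these data known, and 3 listed genes are not reported here. Named were the 6 genes, from each list the 4 smallest p-values in each of 2 comparisons (3 dpi, and 3 to 7 dpi), the 3 most alike genes per member, and neighbours overlapping a member. DLG4, GABBR1, FGFR1, UPF2, SMG1, UPF3A, UPF3B, the markers and the FAS value at 7 dpi were named after their values were seen. Alternatives were pseudocounts of 1 and 0.01, other filters, TPM, median-ratio scaling, quantile normalization, no assembled loci or mitochondrial genes, 2 groups alone, no trend, a replicate block, a GC and length correction per library (spline with 5 degrees of freedom, 13328 entries), and leaving out each library. Leaving out both 3 dpi libraries numbered 3 was added after seeing the data.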

Additional observations from a re-analysis of the deposited data

How the results depend on the processing

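Between sh-Luci-3d and sh-Ptbp1-7d, PTBP1 and PTBP2 kept direction and call in all 23 alternatives (log2 fold changes from -1.465 to -1.114 and from 1.861 to 2.238), and the PTBP2 share kept its direction in each alternative tried. The fall of PTBP1, the shRNA target, alone raises that share. By limma, at 3 dpi PTBP1 missed the FDR in the 2 groups alone (-0.854, adjusted p = 0.0821), and PTBP2 did so with no filter (1.464, adjusted p = 0.141), in the 2 groups alone (1.464, adjusted p = 0.192) and without the trend (1.464, adjusted p = 0.075), so that 1, 0 and 1 of the 6 genes passed with no filter, 2 groups and no trend. From 3 to 7 dpi PTBP2 missed 0.01 with a pseudocount of 0.01 (0.602, adjusted p = 0.0103), no filter (0.600, adjusted p = 0.0441), median-ratio scaling (0.512, adjusted p = 0.0227), quantile normalization (0.562, adjusted p = 0.0106) and no trend (0.600, adjusted p = 0.0232), which left 1 of 6 genes each time. The GC content and transcript length correction made it 4 of 6 both there and between sh-Luci-3d and sh-Ptbp1-7d, while 6394 and 6397 of 13328 entries passed, against 5570 and 5540 of 15551 as reported. The causes were not tested. Leaving out each library gave PTBP1 -0.885 to -0.801 at 3 dpi and -0.371 to -0.312 from 3 to 7 dpi, and PTBP2 1.262 to 1.638 and 0.557 to 0.661, with 0 to 2 genes called in each of these comparisons and 2 to 3 between sh-Luci-3d and sh-Ptbp1-7d.

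Values close to 0 turned sign. At 3 dpi PTBP3 went to -0.138 to 0.111 over single libraries left out (-0.032 without replicate 2 of sh-Ptbp1-3d) and to -0.083 without both libraries numbered 3. RAVER1 went to -0.090 at 3 dpi and to -0.020 at 7 dpi against sh-Luci-3d with the GC content and transcript length correction, with and without the replicate block. RAVER2 at 3 dpi went to -0.000115 with a pseudocount of 1, -0.020 as TPM, -0.011 with median-ratio scaling, -0.00807 with quantile normalization, -0.134 to 0.074 over single libraries left out (-0.024 without replicate 1 of sh-Ptbp1-3d) and -0.126 without both libraries numbered 3. The number of entries past the FDR at 3 dpi, 5 as reported (1126 at an unadjusted p below 0.05), ranged from 0 to 986. It was 0 in the 2 groups alone (965 unadjusted), under the block (1173) and without replicate 3 of sh-Ptbp1-3d (958), 11 with no filter, 23 with the GC content and transcript length correction, and 582 without both libraries numbered 3. The split of higher and lower calls from 3 to 7 dpi was 3152 to 2418 as reported, 2674 to 2903 with quantile normalization, 2895 to 3499 with the correction and 3844 to 2010 as TPM, which moved the median of all entries from 0.092 to 0.195.

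Same-numbered libraries did not deviate together (r between -0.0317 and 0.0512 over entries), so the replicate block rests on a shared number only. With it PTBP1 at 3 dpi gave -0.854 (adjusted p = 0.0583), PTBP2 at 3 dpi 1.464 (adjusted p = 0.0779) and from 3 to 7 dpi 0.600 (adjusted p = 0.0176), with 0 and 1 of the 6 genes called, and the paired sign-flip test of the PTBP2 share gave p = 0.25, the smallest it allows (exact). Without depth, no limit on low values can be given.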
